A study of Homo sapiens with 6 samples.

Results

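Integrins are cell surface receptors made of 1 alpha and 1 beta chain that attach cells to the extracellular matrix, and laminins are matrix proteins of basement membranes built from 1 alpha, 1 beta and 1 gamma chain. The genes described here are the protein-coding genes whose symbols follow the integrin names ITGA and ITGB or the laminin names LAMA, LAMB and LAMC. This rule took 38 genes, 26 integrin and 12 laminin genes, of 60651 gene identifiers in the deposited tables, and it used no measured value. SK-N-AS, an established line of human neuroblastoma cells, lacks amplification of MYCN. Its derivative used here, SK-N-AS TR-MYCN, carried a MYCN expression construct held off by the tetracycline repressor. After removal of ribosomal RNA, total RNA was sequenced in 3 control libraries, titled ETOH, and 3 MYCN-induced libraries, titled Tet. Tetracycline was added for 5 days (120 h in the titles) in the MYCN-induced group. Both groups came from stably transfected single clones kept in 500 µg/ml G418 and 5 µg/ml blasticidin, and the labels do not say how many clones were used. No library received tetracycline without the MYCN construct, so tetracycline and MYCN cannot be told apart.

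Integrin alpha chains largely set the ligand: some bind collagens, some bind laminins and some bind the RGD motif of fibronectin and vitronectin, while ITGB1 can pair with many of them. Laminin trimers are secreted, polymerise into sheets and are bound by integrins and dystroglycan. In tumours of the sympathetic nervous system, as in the neural crest cells from which they derive, both families are known for their part in adhesion and migration.

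Libraries held between 64500589 and 102249336 counted read pairs. Values are given as TPM (counts divided by exon length, scaled to the same total in every library) for levels and as log2 fold changes of MYCN-induced over control from edgeR's quasi-likelihood test, with p-values adjusted over all 29086 genes tested and a threshold of 0.05. MYCN was at 20.0, 22.1 and 19.4 TPM in control replicates 1, 2 and 3 and at 135.5, 155.1 and 107.8 TPM in the MYCN-induced replicates, a log2 fold change of 2.68 (SE 0.08, edgeR adjusted p = 4.15e-05). Neuroblastoma markers were present in every library. The 12 adrenergic neuroblastoma markers summed to 601 to 720 TPM in controls and 519 to 672 TPM after induction. Among them the chromogranin genes CHGA and CHGB fell (log2 fold change -1.21 and -2.13, edgeR adjusted p = 0.0492 and 0.0259), and their part in the results on integrins and laminins was not tested. The 10 mesenchymal neuroblastoma markers summed to 189 to 202 TPM in controls and 206 to 249 TPM after induction, with CD44 at 0 throughout. None of these 10 passed the edgeR threshold with all libraries, whereas DESeq2 called VIM and FOSL1 higher (adjusted p = 0.0084 and 0.00333). Without MYCN-induced replicate 3, edgeR called VIM, PRRX1, FOSL1 and YAP1 higher (adjusted p = 0.0254, 0.0273, 0.0119 and 0.0366), beside 3.68% of all genes tested in that fit. NOTCH2 and TWIST1 went the other way with all libraries (log2 fold change -0.40 and -0.36) and were not called in these fits. Of the adrenergic markers, ISL1 and DBH were also called lower by DESeq2 (adjusted p = 0.00568 and 0.04) and by edgeR without MYCN-induced replicate 3 (adjusted p = 0.0177 and 0.0156). Leukocyte markers (8 genes, CD3E at 0) summed to at most 2.01 TPM, endothelial markers (6 genes) to at most 0.837 TPM and platelet markers (5 genes, with GP9, PF4 and PPBP at 0) to at most 1.63 TPM. Epithelial markers (7 genes) summed to between 48.8 and 70 TPM, nearly all of it the keratins KRT8 and KRT18. MYCN-induced replicate 3 stood apart, at 69.1 on the first principal component (44.8% of the variance) where the other MYCN-induced libraries were at 14.4 and 13.1 and the controls between -40.3 and -25.9. Integrin and laminin genes called with or without this library are given both ways, and partner genes mostly as counts of called genes.

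Of the 38 genes, 32 reached 10 counts in at least 3 libraries and were tested. The other 6 were ITGAM, ITGAX and ITGB2, which belong to leukocyte integrins, ITGB6 of epithelia, and the laminin alpha chains LAMA1 and LAMA2. These 6 genes had between 0 and 10 counts per library and no fold change is given for them. A mean of at least 1 TPM was reached by 18 of the 38 genes, and 12 were under 0.1 TPM. The cells thus carried RNA for a limited set of chains, led by ITGAV and ITGA8 among alpha integrins, ITGB1 and ITGB5 among beta integrins, and LAMA5, LAMB1 and LAMC1 among laminins.

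After MYCN induction, ITGA2 and ITGB8 rose and ITGA1, ITGA8 and LAMC1 fell. That is 2 of 32 tested genes higher, where 1.02% of all tested genes were called higher, and 3 of 32 lower, where 2.38% of all tested genes were called lower. The median log2 fold change was -0.065 over the 32 genes, with 13 of them above 0, and 49.9% of all tested genes were above 0. By family the median was -0.005 for the 22 tested integrin genes and -0.145 for the 10 tested laminin genes, of which 3 were above 0. RNA was taken from whole cultures, so fewer cells of a type and less RNA per cell cannot be told apart. The labels do not state that libraries came from separate cultures, while the study's methods describe independent experiments. If the libraries were technical replicates, the p-values would measure technical spread only.

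**Figure D1:**
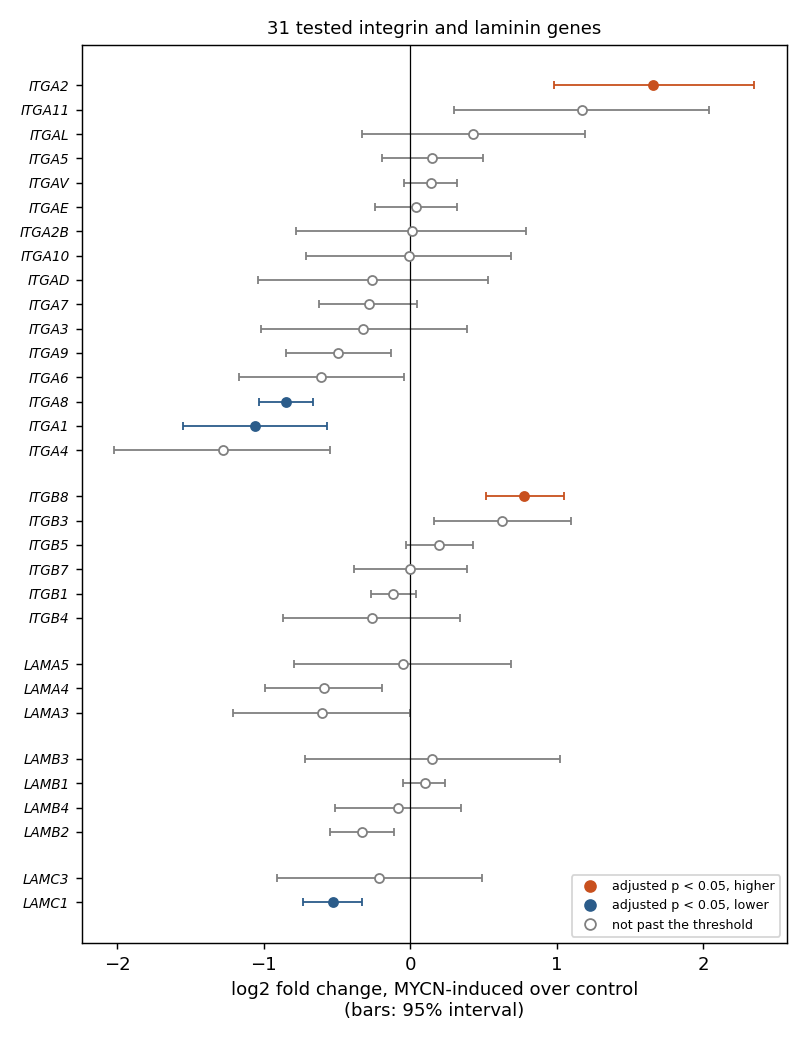
Log2 fold change of MYCN-induced over control for 31 of the 32 tested integrin and laminin genes, grouped by chain class (integrin alpha, integrin beta, laminin alpha, beta and gamma, from top to bottom), with 95% intervals of the edgeR fit. Filled points passed an adjusted p of 0.05: ITGA2 and ITGB8 lie to the right of 0, and ITGA1, ITGA8 and LAMC1 to the left.

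ITGA1 and ITGA2 encode alpha chains of the collagen receptors and are neighbours on chromosome 5 (ITGA1 at chr5:52787916-52959209 and ITGA2 at chr5:52989340-53094779, GRCh38, both on the plus strand), with 30.1 kb between them. LAMC1, the gamma chain of most laminin trimers, is at chr1:183023420-183145592 on the plus strand. The sequences before their starts are shown because ITGA1 and ITGA2 moved in opposite directions and LAMC1 had the highest mean TPM of all 38 genes. They are the 250 bases upstream of the RefSeq start (GRCh38.p14, plus strand, 5′ to 3′), at chr5:52787666-52787915 for ITGA1, chr5:52989102-52989351 for ITGA2 and chr1:183023170-183023419 for LAMC1. Capitals mark CACGTG (the E-box that MYC proteins bind best), CACGCG (a variant E-box) and GGGCGG (the GC box), on either strand.
ITGA1: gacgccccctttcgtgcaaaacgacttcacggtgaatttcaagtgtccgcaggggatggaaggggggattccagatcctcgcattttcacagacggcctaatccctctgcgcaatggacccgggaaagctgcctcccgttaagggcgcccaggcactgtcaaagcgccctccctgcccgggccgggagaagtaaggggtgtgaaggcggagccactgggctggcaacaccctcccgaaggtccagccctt
ITGA2: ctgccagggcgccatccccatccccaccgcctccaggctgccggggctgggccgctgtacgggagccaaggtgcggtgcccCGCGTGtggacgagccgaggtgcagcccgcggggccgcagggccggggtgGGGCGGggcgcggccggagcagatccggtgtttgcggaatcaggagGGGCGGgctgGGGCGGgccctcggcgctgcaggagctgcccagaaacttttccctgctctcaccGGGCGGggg
LAMC1: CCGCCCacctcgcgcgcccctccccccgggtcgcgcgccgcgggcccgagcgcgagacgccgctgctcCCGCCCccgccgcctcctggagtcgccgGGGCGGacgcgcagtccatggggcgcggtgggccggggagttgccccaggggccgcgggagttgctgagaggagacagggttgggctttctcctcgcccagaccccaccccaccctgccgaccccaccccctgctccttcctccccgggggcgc

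None of the 3 motifs was found in the ITGA1 stretch. The ITGA2 stretch held 1 CACGCG, read on the other strand at 169 bases before the start, and 4 GGGCGG, and the LAMC1 stretch held 3 GGGCGG. GC content was 62.0% for ITGA1, 76.4% for ITGA2 and 79.6% for LAMC1. The RefSeq table had windows of 300 bases, from 250 before to 50 after a start, for 26 of the 38 genes (33 windows in all). CACGTG was in 1 of the 33 windows, that of an upstream start of ITGA6, and in 7.26% of all 35116 windows of the table. CACGCG was in 4 windows (ITGA2, ITGB5, LAMA2 and LAMC1), against 11.4% of all windows, and GGGCGG in 19 windows of 14 genes, against 45.0%. CACGTG reads the same on both strands, CACGCG reads CGCGTG on the other strand and GGGCGG reads CCGCCC, and no marked motifs overlap in the 3 stretches. These matches are a description of letters in the windows and no binding was measured.

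Among the 4 collagen-binding alpha genes the share of ITGA1 was lower, and those of ITGA2 and ITGA11 were higher, in every MYCN-induced library than in every control. ITGA2 RNA was at 1.84, 1.73 and 1.56 TPM in control replicates 1, 2 and 3 and at 4.17, 4.13 and 7.32 TPM in the MYCN-induced replicates. Every MYCN-induced library was above every control, and replicate 3 was the highest. The log2 fold change was 1.66 (SE 0.30, edgeR adjusted p = 0.0294), a 3.17-fold rise. Without MYCN-induced replicate 3 it was 1.19 (edgeR adjusted p = 0.00158). Without MYCN-induced replicate 2 the gene also stayed past the threshold (adjusted p = 0.0347, edgeR), but without control replicates 1, 2 or 3 or MYCN-induced replicate 1 the edgeR adjusted p was 0.118, 0.146, 0.127 and 0.0621.

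ITGA1 RNA ran the other way. It was at 9.77, 8.64 and 8.11 TPM in the controls and at 5.15, 5.52 and 2.35 TPM after induction, again without overlap and with replicate 3 farthest from the controls. Its log2 fold change was -1.06 (SE 0.21, edgeR adjusted p = 0.0406). Leaving out MYCN-induced replicate 3 gave -0.82 (edgeR adjusted p = 0.00148). Leaving out control replicate 1, 2 or 3, or MYCN-induced replicate 1 or 2, gave edgeR adjusted p of 0.137, 0.168, 0.129, 0.0868 and 0.0651. With a filter of at least 100 counts in every library ITGA1 also missed the threshold (edgeR adjusted p = 0.0556). ITGA1 shares 7.5% of its exon bases with the antisense gene ITGA2-AS1 (mean 311.2 counts per library against 6818.6 for ITGA1). On the same strand it shares 3.1% with RPL17P21 (mean 57.8 counts) and 2.7% with PELO (mean 1984.8 counts). No ITGA2 exon overlaps another gene.

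ITGA11, the alpha chain of a receptor for fibrillar collagens, was at 4.19, 4.15 and 3.46 TPM in controls and 6.56, 5.45 and 13.2 TPM after induction. Its groups did not overlap, but the log2 fold change of 1.17 (SE 0.38) missed the threshold (edgeR adjusted p = 0.147). Without MYCN-induced replicate 3, the highest library, it was 0.53 and past the threshold (edgeR adjusted p = 0.0453). ITGA10, the remaining collagen-binding chain, stayed between 0.161 and 0.280 TPM in all 6 libraries.

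Within a library, ITGA1 made up 60.9%, 58.4% and 61.0% of the summed TPM of the 4 collagen-binding genes in the controls and 32%, 36.2% and 10.1% after induction. ITGA2 went from 11.5%, 11.7% and 11.8% to 25.9%, 27.0% and 31.6%. The share of ITGA11 went from between 26.0% and 28.1% to between 35.7% and 57.0%. The ratio of ITGA2 to ITGA1 TPM was 0.188, 0.200 and 0.193 in the controls and 0.810, 0.747 and 3.12 in the MYCN-induced libraries. By TPM, ITGA1 was thus the leading collagen-binding chain in each control, whereas ITGA11 led in MYCN-induced replicates 1 and 3 and ITGA1 in replicate 2, by 36.2% to 35.7%. This order rests on exon lengths of 18545 bases for ITGA1 and 10866 bases for ITGA11.

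**Figure D2:**
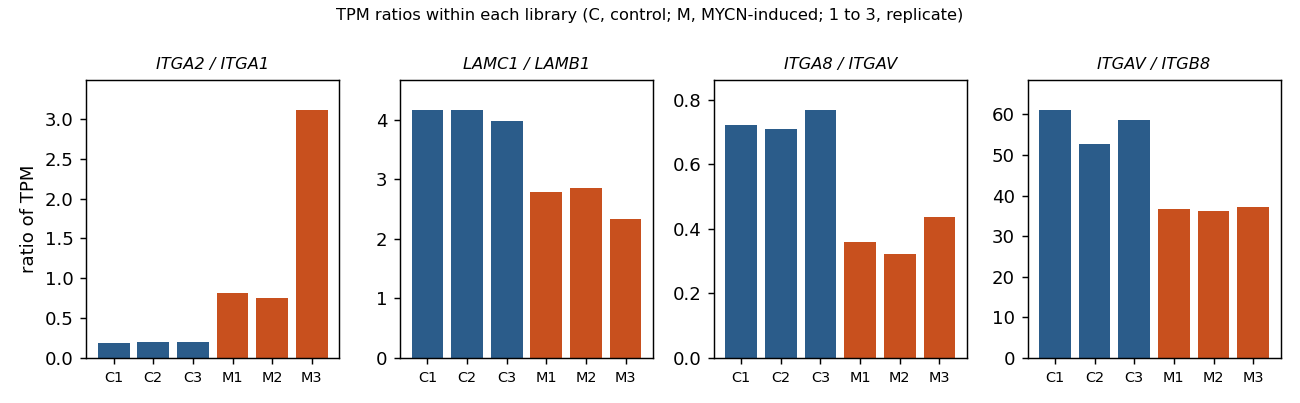
Ratios of TPM between gene pairs in each library, on linear axes from 0, with controls (C1 to C3) in blue and MYCN-induced libraries (M1 to M3) in orange. ITGA2 to ITGA1 goes from about 0.2 to 0.747 or more, LAMC1 to LAMB1 falls from 3.98 or more to 2.86 or less, ITGA8 to ITGAV from 0.710 or more to 0.436 or less, and ITGAV to ITGB8 from 52.8 or more to 37.1 or less.

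ITGA8, which pairs with ITGB1 and binds RGD ligands such as nephronectin, fell in every fit that left out a library. Its RNA was at 27.1, 23.8 and 23.2 TPM in controls and at 13.7, 14.2 and 12.97 TPM after induction. The 2 groups lay far apart, and MYCN-induced replicate 3 was close to the other 2. The log2 fold change was -0.85 (SE 0.08, edgeR adjusted p = 0.00378), and the level fell by 44.5%. It passed the threshold in each of the 6 fits that left out 1 library, with log2 fold changes from -0.91 to -0.80 and edgeR adjusted p from 0.00135 to 0.0358. ITGA8 is on chromosome 10 (chr10:15513954-15719922, minus strand, GRCh38), and its exons overlap no other gene.

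No other RGD-binding alpha chain passed the threshold. ITGAV, the chain shared by several vitronectin receptors and the most abundant alpha chain, was at 37.5, 33.4 and 30.2 TPM in controls and 38.04, 44.2 and 29.8 TPM after induction. The groups overlapped, and the log2 fold change was 0.14 (95% interval -0.04 to 0.32, edgeR adjusted p = 0.392). ITGA5, the alpha chain of the main fibronectin receptor, was between 10.3 and 12.6 TPM in controls and 11.9 and 14.0 TPM after induction (log2 fold change 0.15, SE 0.15, edgeR adjusted p = 0.637). ITGA2B, the platelet chain, stayed under 0.1 TPM. The ratio of ITGA8 to ITGAV was 0.723, 0.710 and 0.770 in controls and 0.360, 0.322 and 0.436 after induction.

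No laminin-binding alpha chain passed the threshold with all libraries, and 1 library decided this for ITGA3 and ITGA6. ITGA6, a receptor chain for several laminins, was at 10.2, 8.85 and 9.26 TPM in controls and 5.06, 5.03 and 7.87 TPM after induction. The groups were apart in TPM but overlapped on the scale of TMM-normalized counts per kilobase. Its log2 fold change was -0.61 (SE 0.24, edgeR adjusted p = 0.234), and without MYCN-induced replicate 3, the highest of its group, it was -0.99 (edgeR adjusted p = 0.00212). ITGA3, the other widely used laminin receptor chain, was at 3.60, 4.52 and 4.0 TPM in controls and 2.46, 2.48 and 4.44 TPM after induction, so that replicate 3 alone lay among the controls. Its log2 fold change was -0.32 (SE 0.31, edgeR adjusted p = 0.639) with this library and -0.81 (edgeR adjusted p = 0.0187) without it. ITGA7, best known from muscle, stayed between 0.538 and 0.900 TPM.

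ITGA4 and ITGA9 form a small subfamily that binds VCAM1, fibronectin and tenascin. ITGA4 was at 3.74, 3.76 and 3.15 TPM in controls and 1.89, 2.05 and 0.612 TPM after induction. All MYCN-induced libraries were below all controls and replicate 3 was the lowest, with a log2 fold change of -1.28 (SE 0.32) that missed the threshold in edgeR (adjusted p = 0.0770). ITGA4 passed it with DESeq2 (adjusted p = 0.00146) and without MYCN-induced replicate 3 (log2 fold change -0.94, edgeR adjusted p = 0.00279), and 14.8% of its exon bases are shared with CERKL on the opposite strand. ITGA9 was at 5.05, 4.42 and 4.05 TPM in controls and 3.73, 2.69 and 3.08 TPM after induction, without overlap (log2 fold change -0.49, SE 0.16, edgeR adjusted p = 0.147).

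Of the leukocyte alpha chains, ITGAE was the highest at 0.802 to 1.27 TPM over all libraries, and 6.5% of its exon bases overlap HASPIN. ITGAD and ITGAL stayed near or under 0.1 TPM. None of these 3 tested genes passed the threshold, and ITGB2, the beta chain that ITGAL, ITGAM, ITGAX and ITGAD need, had at most 6 counts in any library.

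Among the beta chains ITGB8 rose, while ITGB1, the partner of many alpha chains, did not pass the threshold. ITGB8 pairs with ITGAV to bind and activate latent TGF-beta. Its RNA was low, at 0.613, 0.634 and 0.514 TPM in controls and 1.03, 1.22 and 0.802 TPM after induction. The groups did not overlap, and the log2 fold change was 0.78 (SE 0.11, edgeR adjusted p = 0.0151), a 1.72-fold rise. Without MYCN-induced replicate 3 it was 0.85 (edgeR adjusted p = 0.00686), and without MYCN-induced replicate 2 it was 0.72 (edgeR adjusted p = 0.0463). Without control replicates 1, 2 or 3 or MYCN-induced replicate 1 the edgeR adjusted p was 0.0695, 0.0766, 0.0866 and 0.0613. The ratio of ITGAV to ITGB8 TPM was 61.2, 52.8 and 58.7 in controls and 36.8, 36.3 and 37.1 after induction, with little spread among the MYCN-induced libraries. ITGB8 lies at chr7:20330702-20415754 on the plus strand (GRCh38) and shares 0.6% of its exon bases with ITGB8-AS1.

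ITGB1 was at 57.9, 53.6 and 51.3 TPM in controls and 50.3, 59.5 and 41.1 TPM after induction. The groups overlapped in TPM, though not on the TMM-normalized scale, and the log2 fold change was -0.12 (95% interval -0.27 to 0.04, edgeR adjusted p = 0.401). ITGB5, which pairs with ITGAV in a vitronectin receptor, was at 13.5, 13.4 and 11.9 TPM in controls and 14.5, 14.9 and 14.8 TPM after induction. Its log2 fold change was 0.20 (SE 0.10, edgeR adjusted p = 0.331), with no overlap in TPM but with overlap on the TMM-normalized scale. ITGB3, the beta chain of another vitronectin receptor, was between 0.168 and 0.229 TPM in controls and 0.290 and 0.296 TPM after induction (log2 fold change 0.63, SE 0.20, edgeR adjusted p = 0.149), and 35.7% of its exon bases are shared with ENSG00000259753. ITGB4 stayed near or under 0.1 TPM. ITGB7 was between 1.01 and 1.33 TPM, but 42.3% of its exon bases are shared with ZNF740 on the opposite strand, whose mean count was 5191.5 against 279.7 for ITGB7, so its level is uncertain.

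**Figure D3:**
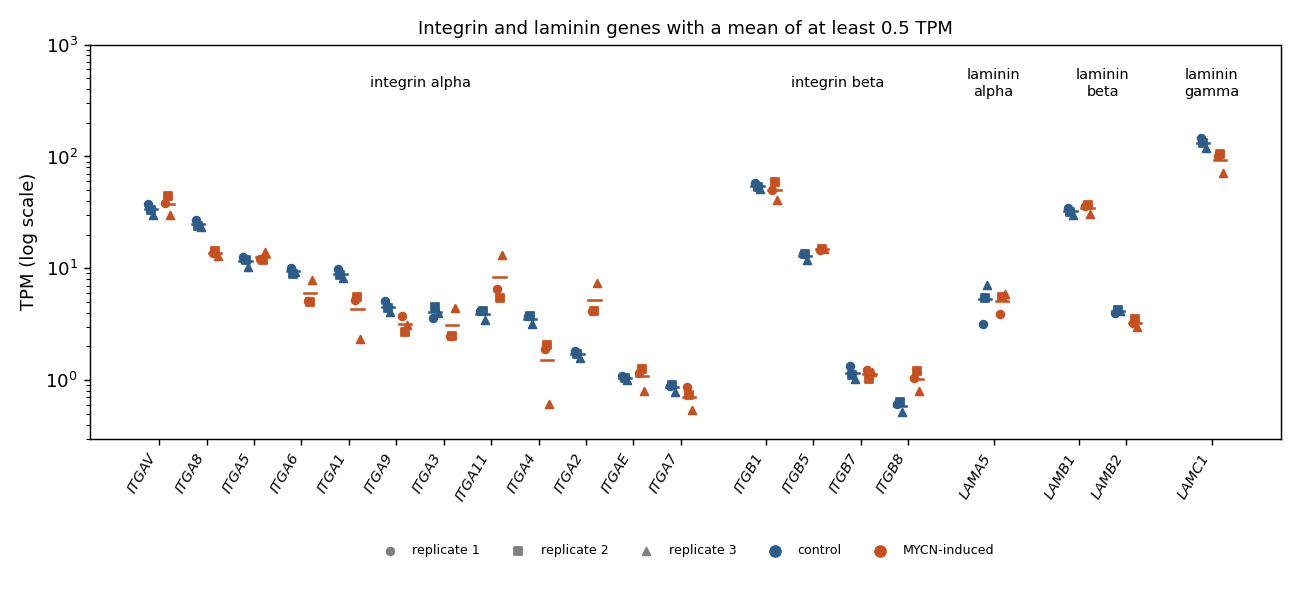
TPM on a log axis of the 20 integrin and laminin genes with a mean of at least 0.5 TPM, by chain class and in descending order of the control mean. Blue symbols are controls and orange symbols MYCN-induced libraries, symbol shape gives the replicate number and short lines are group means. ITGA8, ITGA1 and LAMC1 lie lower and ITGA2 and ITGB8 higher after induction, and the triangle of MYCN-induced replicate 3 lies apart for ITGA1, ITGA4, ITGA11 and ITGA2.

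Of the laminins, LAMC1 fell while its most abundant beta partner did not pass the threshold. LAMC1 was at 145.3, 133.0 and 118.5 TPM in controls and 100.5, 105.2 and 71.0 TPM after induction. No MYCN-induced library reached the lowest control, and replicate 3 was the lowest of all. The log2 fold change was -0.53 (SE 0.09, edgeR adjusted p = 0.0207), and the level fell by 30.8%. Without MYCN-induced replicate 3 it was -0.45 (edgeR adjusted p = 0.00749). Leaving out control replicate 1, 2 or 3, or MYCN-induced replicate 1 or 2, raised the edgeR adjusted p to 0.0909, 0.124, 0.0709, 0.0534 and 0.0523. LAMC1 made up at least 99.6% of the gamma chain TPM in every library, and LAMC3 stayed under 0.4 TPM.

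LAMB1, the beta chain of embryonic and most other laminins, was at 35.0, 31.9 and 29.8 TPM in controls and 36.2, 36.7 and 30.3 TPM after induction. The groups overlapped (log2 fold change 0.10, 95% interval -0.05 to 0.24, edgeR adjusted p = 0.473). The ratio of LAMC1 to LAMB1 TPM was 4.16, 4.17 and 3.98 in controls and 2.78, 2.86 and 2.34 after induction. It was lower in each MYCN-induced library than in each control. The ratio rests on exon lengths of 8446 bases for LAMC1 and 18592 bases for LAMB1, which cover all annotated exons. Which of these chains had more transcripts was therefore not settled. LAMB2, the beta chain of neuromuscular and vascular basement membranes, was at 3.97, 4.22 and 4.13 TPM in controls and 3.27, 3.50 and 3.01 TPM after induction, without overlap (log2 fold change -0.33, SE 0.09, edgeR adjusted p = 0.108). LAMB3 and LAMB4 stayed under 0.5 TPM.

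LAMA5, the alpha chain of adult basement membranes, held between 92.4% and 98.0% of the laminin alpha TPM. It was at 3.20, 5.45 and 7.12 TPM in controls and 3.89, 5.52 and 5.83 TPM after induction. The spread among controls was as wide as any difference between the groups, and the log2 fold change was -0.05 (95% interval -0.79 to 0.69, edgeR adjusted p = 0.959), a sign that turned when control replicate 3 (0.28) or MYCN-induced replicate 1 (0.14) was left out. LAMA4, a vascular and mesenchymal chain, was between 0.127 and 0.179 TPM in controls and 0.0776 and 0.118 TPM after induction, without overlap (log2 fold change -0.59, SE 0.17, edgeR adjusted p = 0.120). LAMA3 stayed under 0.1 TPM. By TPM, alpha chain RNA was thus the scarcest of the 3 laminin chains. The ratio to LAMA5 TPM was between 12.2 and 45.4 for LAMC1 and between 4.18 and 10.9 for LAMB1.

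Summed over a class, integrin alpha TPM was 108 ± 9.25 in controls and 97.6 ± 2.36 after induction (SD, n = 3). Integrin beta TPM was 69.2 ± 4.23 and 67.6 ± 9.41, laminin alpha TPM 5.49 ± 1.95 and 5.24 ± 1.04, and laminin beta TPM 36.8 ± 2.47 and 38.1 ± 3.67 (SD, n = 3 in each group). The laminin gamma class was the one class whose libraries did not overlap between groups, with 133 ± 13.4 TPM in controls and 92.5 ± 18.7 TPM after induction (SD, n = 3), and it is nearly all LAMC1. The order of levels in the controls began with ITGAV, ITGA8 and ITGA5, whose ranges were apart, followed by ITGA6 and ITGA1, whose ranges overlapped. After induction ITGA8 and ITGA5 overlapped, and from ITGA5 down to ITGA3 each alpha chain overlapped the next.

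Counting genes whose 3 control and 3 MYCN-induced TPM values did not overlap, 5 of the 32 tested genes were higher (ITGA2, ITGA11, ITGB3, ITGB5 and ITGB8), beside 7.55% of all tested genes. On the same count 8 were lower (ITGA1, ITGA6, ITGA8, ITGA4, ITGA9, LAMA4, LAMB2 and LAMC1), beside 11.4% of all tested genes, and 19 overlapped. Without MYCN-induced replicate 3, edgeR called 3 genes higher (ITGA2, ITGA11 and ITGB8), beside 3.68% of all genes tested in that fit, and 6 lower (ITGA1, ITGA3, ITGA6, ITGA8, ITGA4 and LAMC1), beside 4.44%. Without control replicate 1, 2 or 3 or MYCN-induced replicate 1, edgeR called 0 genes higher (3, 3, 4 and 4 at an unadjusted p under 0.05) and ITGA8 alone lower. Without MYCN-induced replicate 2 it called ITGA2 and ITGB8 higher and ITGA8 lower. DESeq2 on all libraries called 2 higher and 4 lower, the genes called by edgeR with ITGA4 added as lower. The share of all genes that DESeq2 called was not computed, so these DESeq2 counts have no background beside them. The other 13 tested genes had log2 fold changes between -0.60 and 0.43 and edgeR adjusted p of at least 0.270.

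Genes that work with integrins and laminins were described from 6 lists with 100 genes, of which 86 were tested. edgeR called 4 of the 86 higher and 13 lower, beside the 1.02% and 2.38% of all tested genes given above. The lists were chosen with earlier results of these data known, so these counts are a description and not a test. Called ligands and matrix genes were lower, with COL4A6 as the exception, and the called adaptors went both ways. Without MYCN-induced replicate 3, 6 were higher and 17 lower, beside 3.68% and 4.44% of all genes tested in that fit. Without control replicate 1, 2 or 3 or MYCN-induced replicate 1 or 2, edgeR called 7, 1, 5, 6 and 7 lower, and called higher 0, 0, 0, 0 and 1 (7, 7, 7, 9 and 10 at an unadjusted p under 0.05).

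Among 17 tested other integrin ligands, 5 fell, none rose and the median log2 fold change was -0.54. Over all tested genes 2.38% were called lower, and 49.9% had a log2 fold change above 0 where 3 of these 17 did. THBS1, a matricellular glycoprotein, fell from 56.4 ± 4.06 to 39.2 ± 5.05 TPM (SD, n = 3; log2 fold change -0.53, edgeR adjusted p = 0.00904). FN1, fibronectin, fell from 5.42 ± 0.737 to 3.36 ± 0.884 TPM (log2 fold change -0.71, edgeR adjusted p = 0.0330). VTN, vitronectin, and TNC, tenascin-C, had log2 fold changes of -0.74 and -0.56 (edgeR adjusted p = 0.0454 and 0.0110). The fifth was CCN1. Of the 6 edgeR fits that left out 1 library, THBS1 passed the threshold in 5, TNC in 3 and FN1, VTN and CCN1 in 1 each.

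Of 14 tested basement membrane components, 3 fell and 1 rose, beside 2.38% lower and 1.02% higher of all tested genes. FRAS1, which anchors epithelial basement membranes, had a log2 fold change of -0.98 (edgeR adjusted p = 0.00373). NTN4, a netrin that binds laminin gamma chains, fell from 11.6 ± 0.803 to 6.78 ± 1.33 TPM (SD, n = 3; log2 fold change -0.79, edgeR adjusted p = 0.00603), the same direction as LAMC1. SPARC, a collagen-binding matricellular protein, had -0.47 (edgeR adjusted p = 0.0214). COL4A6, a type IV collagen chain, rose by 0.54 on the log2 scale (edgeR adjusted p = 0.0453). Of 6 non-integrin laminin receptors, DAG1, which encodes dystroglycan, and the syndecan SDC2 fell (log2 fold change -0.42 and -0.57, edgeR adjusted p = 0.0370 and 0.00862).

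On the inner side of the membrane, 3 of 25 tested activators and adaptors rose and 2 fell, beside 1.02% and 2.38% of all tested genes. ACTN1 (alpha-actinin), LIMS1 (PINCH) and PXN (paxillin), which link integrin tails to actin, had log2 fold changes of 0.49, 0.42 and 0.40 (edgeR adjusted p = 0.0432, 0.0490 and 0.0496). TGFB1I1, a paxillin relative, and the tensin TNS3 had -0.90 and -0.76 (edgeR adjusted p = 0.0144 and 0.0303). In the list of 16 adhesion kinases and signalling genes edgeR and DESeq2 called 0 (1 gene, CDC42, was lower at an unadjusted edgeR p under 0.05), and the focal adhesion kinase PTK2 had a log2 fold change of 0.08 (SE 0.07, edgeR adjusted p = 0.612). Of 8 integrin-associated membrane proteins, the tetraspanin CD9 passed the edgeR threshold with all libraries, at -0.94 (adjusted p = 0.00751). SLC3A2, the CD98 heavy chain, was called higher by DESeq2 (adjusted p = 0.00258), and edgeR without MYCN-induced replicate 3 called SLC3A2 and the urokinase receptor gene PLAUR higher (adjusted p = 0.0137 and 0.0253).

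**Figure D4:**
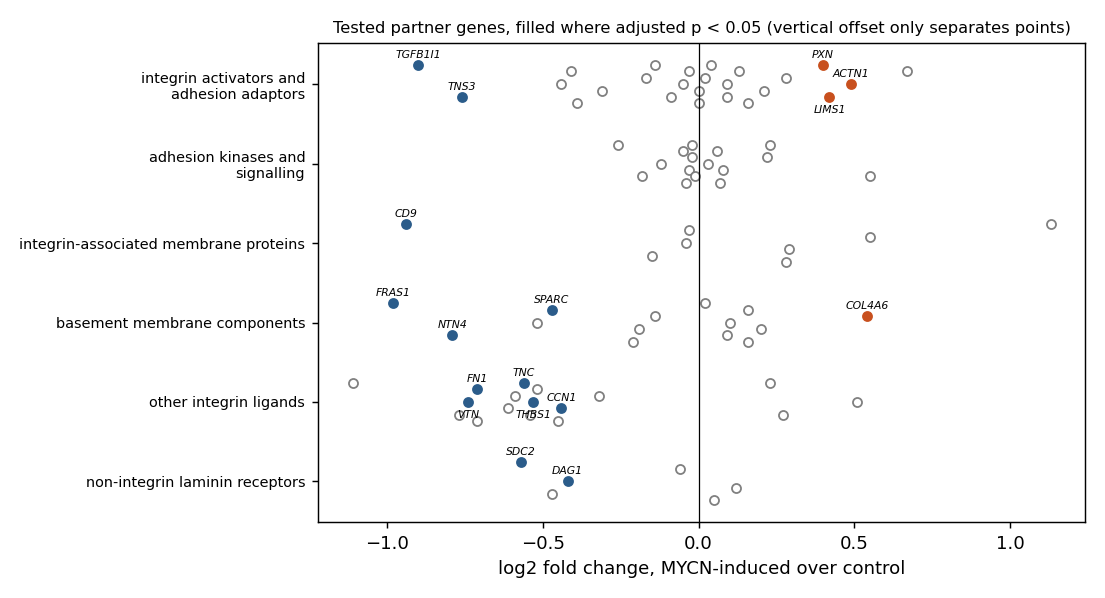
Log2 fold change of MYCN-induced over control for the 86 tested partner genes, by list. Filled and named points passed an adjusted p of 0.05, orange for higher (4 genes) and blue for lower (13 genes). The 5 named integrin ligands all lie between -0.74 and -0.44, and no kinase or signalling gene is filled.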

How the data were processed

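The authors deposited, for each of 6 libraries, estimated counts of read pairs per gene over exons. The submitters' processing notes list STAR 2.7.1a, featureCounts 1.5.1 and GRCh38, whereas the file headers name featureCounts v1.6.4, run on unique alignments with pairs that overlap several genes shared in fractions and without a strand option. The libraries were made with a stranded kit and the methods name a strand option, so reads of overlapping genes on opposite strands may not be separated. Symbols were taken from GENCODE release 44, which matched 99.65% of 60651 identifiers, and coordinates from the deposited tables. The 92 spike-in rows had 0 counts.

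Estimated counts were rounded, a gene had to reach 10 counts in 3 libraries or more, and those genes were tested with edgeR 4.0.16 (R 4.3.3): TMM normalization, quasi-likelihood test, Benjamini-Hochberg adjustment over all 29086 genes, threshold 0.05. A standard error is the log2 fold change divided by the square root of F, and the biological coefficient of variation was 0.153. TPM were derived from the deposited counts with the exon length of each gene. This length covers all annotated exons and can exceed that of the transcripts present, so TPM levels of different genes compare only roughly. Comparisons of the same gene between libraries do not depend on its length. At 64500589 to 102249336 pairs per library, counting error is large only for genes near 10 counts. Replicates differed by more than counting noise (chi-square per gene 12.1 to 146.1) and each was counted as 1 sample. On simulated counts of 28605 genes, 200 of them changed 2-fold, edgeR recovered 80.5% and called 18 unchanged genes. DESeq2 1.42.0 recovered 92.5% and called 56.

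Groups were taken from the sample titles. The members, partner lists and markers were chosen with earlier results of these data known. Genes named with values in every library are those past the threshold, those with a mean of at least 1 TPM whose groups did not overlap, and the most abundant gene of each chain class. ITGA3, ITGA5, ITGB3 and LAMA4 were added after their values were seen. Partners past the threshold were named, at most 4 per list by size of change, plus CCN1 and PXN, which complete the called genes of their lists. PTK2, CDC42, SLC3A2, PLAUR, L1CAM and the named markers were added after their values were seen. Alternatives were library size only, upper quartile, DESeq2, no filter on counts, a minimum of 100 counts per library, a block for the replicate number and leaving out each library. TMM-normalized counts per kilobase in place of TPM for the overlap counts were added after seeing the data. Promoter sequences are from RefSeq (GRCh38.p14). A few genes of the lists are not reported here by name.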

Additional observations from a re-analysis of the deposited data

How the results depend on the processing

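With all 6 libraries, edgeR with library size only, upper quartile or TMM called the same 5 integrin and laminin genes. DESeq2 and the fit without a count filter added ITGA4 as lower, and at least 100 counts in every library lost ITGA1. Leaving out 1 library, the integrin and laminin genes called numbered 0 to 3 (higher) and 1 to 6 (lower), and the partner genes called numbered 0 to 6 (higher) and 1 to 17 (lower). The fits without a library have fewer samples, and the cause of the larger counts without MYCN-induced replicate 3 was not tested. Partner genes called higher numbered 2 with library size only, 2 with upper quartile and 2 with a minimum of 100 counts per library.

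Whether the replicate numbers in the titles pair the samples was not settled. Deviations from the group means correlated at 0.22, -0.02 and 0.07 for numbers 1, 2 and 3, and between -0.19 and 0.08 for unlike numbers. Not every library correlated best with its own number, and deviations from means of 3 libraries cannot exclude a pairing. With the number as a block, edgeR called 2 integrin and laminin genes higher and 4 lower, adding ITGA4 (adjusted p = 0.0349), and 0 partner genes higher (12 at an unadjusted p under 0.05, and 5 by DESeq2 without the block). It called 12 partner genes lower, losing DAG1 (adjusted p = 0.0637) and VTN (adjusted p = 0.0777) and adding L1CAM (adjusted p = 0.0307). The other listed calls of integrin and laminin genes were the same with the block.

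Log2 fold changes that turned sign all belonged to genes that passed the threshold in no fit. Under DESeq2 and without a count filter ITGA10 was at 0.0046 and 0.00487. With library size only, upper quartile and the block, ITGA2B was at -0.0209, -0.0186 and -0.00346 and ITGB7 at -0.0400, -0.0336 and -0.00967, and ITGB7 was at -0.0141 with at least 100 counts. LAMA5 was at 0.00528 with the block. Leaving out 1 library gave ranges of -0.373 to 0.201 for ITGA10, -0.0355 to 0.275 for ITGA5, -0.212 to 0.240 for ITGA2B, -0.008 to 0.140 for ITGAE, -0.132 to 0.151 for ITGB7, -0.333 to 0.275 for LAMA5, -0.407 to 0.424 for LAMB3, -0.164 to 0.0437 for LAMB4 and -0.440 to 0.0422 for LAMC3. For these genes no direction is given.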

Other observations

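Other members of the families also lie next to each other on the same strand. LAMB4 lies 20.3 kb from LAMB1 and had a mean of 0.160 TPM over the 6 libraries against 33.3 TPM for LAMB1. ITGAM, ITGAX and ITGAD follow each other on chromosome 16 at gaps of 22.2 and 10.3 kb, and each had a mean under 0.1 TPM.

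SLC3A2, the CD98 heavy chain that binds integrin beta tails, had the largest positive log2 fold change among the 8 integrin-associated membrane proteins. It was at 10.8, 10.8 and 10.4 TPM in controls and at 19.2, 16.5 and 31.5 TPM after induction, without overlap. Its log2 fold change was 1.13 (SE 0.29) and missed the threshold with edgeR (adjusted p = 0.0878), but passed it with DESeq2 (adjusted p = 0.00258). Its log2 fold change without MYCN-induced replicate 3, its highest library, was 0.66 and past the threshold (edgeR adjusted p = 0.0137). SLC3A2 was chosen here after its values were seen.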
